A study of Homo sapiens with 12 samples.

Results

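The feedback inhibitors of SMAD signalling studied here were 10 genes, chosen by symbol: the inhibitory SMAD gene SMAD7, the SKI family genes SKIL and SKI, the receptor-SMAD decoys PMEPA1 and LDLRAD4, the ubiquitin ligase genes SMURF1, SMURF2 and NEDD4L, and the homeodomain repressor genes TGIF1 and TGIF2. Each symbol matched 1 of the 60676 gene rows counted, and all 10 passed the filter on low counts that left 16192 genes to test. They were followed in A549, an established human lung adenocarcinoma cell line, in 12 libraries that form 4 groups of 3. Co.vec cells carried the empty lentiviral vector pCDH-EF1a-PURO and LETS1 cells a lentiviral construct for the long non-coding RNA LETS1. All cells were selected with puromycin as a population. After 3 more days each kind received TGF-β at 5 ng/mL, or the buffer of the ligand, for 4 h. The groups are thus Co.vec with buffer, Co.vec with TGF-β, LETS1 with buffer and LETS1 with TGF-β. Replicates are named biological in the labels, without word of separate transductions, so p values measure only the spread between these samples.

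TGF-β binds a pair of serine/threonine kinase receptors, which phosphorylate SMAD2 and SMAD3. These join SMAD4, enter the nucleus and bind DNA at short GTCT elements. Several genes that damp the signal are switched on by the same complexes. The brakes act at the receptor (SMAD7 with the SMURF ligases), at the SMADs themselves (PMEPA1, LDLRAD4, NEDD4L) and on chromatin (SKI, SKIL, TGIF1, TGIF2). Messenger RNA reports the supply side of this loop only. SKIL and SKI proteins are also degraded after the ligand arrives, which RNA counts do not show.

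Each library held 19705135 to 20351043 fragments in genes, and the 10 genes together held 0.0550% to 0.194% of them. The epithelial markers KRT8, KRT18, KRT19, CDH1, EPCAM and CLDN4 were present in every library, EPCAM at 6.51 to 8.71 CPM (the count of a gene scaled to its library's size, which TMM adjusts). Among markers of leukocytes, endothelium and fibroblasts, PTPRC, CD3E, VWF, CDH5, COL3A1 and DCN had at most 4 counts in any library. PECAM1 had 0 to 9, PDGFRB 1 to 13 and CD14 25 to 54 counts, and LUM had 3 to 10 counts in Co.vec libraries and 14 to 37 in LETS1 libraries. No gene in the symbol table was named LETS1, so how far LETS1 itself was raised could not be read.

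The stretch around the start of transcription is shown for 4 members picked by how they responded: PMEPA1, SMAD7 and SKIL rose with the ligand, and TGIF2 fell. The sequences are RefSeq's (GRCh38.p14), 250 bases before to 50 after the start, 5′ to 3′ on the gene's own strand. Where RefSeq lists several starts, the one nearest to the start of a GENCODE principal transcript was taken. It lay 11 bases from that start for SKIL, 10 for TGIF2 and 113 for PMEPA1, but 1087 for SMAD7, whose window is thus not at its principal start. The windows of LDLRAD4 (741 bases away) and NEDD4L (2848) are also distant. Capitals mark GTCT or its reverse complement AGAC, the short element that SMADs bind. The windows are chr20:57709966-57710265 (minus strand) for PMEPA1, chr18:48950916-48951215 (minus) for SMAD7, chr3:170357465-170357764 (plus) for SKIL and chr20:36573347-36573646 (plus) for TGIF2.
PMEPA1: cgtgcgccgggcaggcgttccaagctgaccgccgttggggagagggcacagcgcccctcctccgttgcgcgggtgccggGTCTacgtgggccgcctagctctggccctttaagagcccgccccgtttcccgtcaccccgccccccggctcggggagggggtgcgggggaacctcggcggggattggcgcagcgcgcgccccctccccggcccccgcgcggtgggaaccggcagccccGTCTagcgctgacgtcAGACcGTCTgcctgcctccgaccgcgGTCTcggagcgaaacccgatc
SMAD7: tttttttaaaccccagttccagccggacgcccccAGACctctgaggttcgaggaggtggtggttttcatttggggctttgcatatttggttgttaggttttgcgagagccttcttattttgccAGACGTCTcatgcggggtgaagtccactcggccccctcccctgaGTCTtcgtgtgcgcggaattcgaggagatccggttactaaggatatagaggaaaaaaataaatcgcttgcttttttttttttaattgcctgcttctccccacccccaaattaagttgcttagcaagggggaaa
SKIL: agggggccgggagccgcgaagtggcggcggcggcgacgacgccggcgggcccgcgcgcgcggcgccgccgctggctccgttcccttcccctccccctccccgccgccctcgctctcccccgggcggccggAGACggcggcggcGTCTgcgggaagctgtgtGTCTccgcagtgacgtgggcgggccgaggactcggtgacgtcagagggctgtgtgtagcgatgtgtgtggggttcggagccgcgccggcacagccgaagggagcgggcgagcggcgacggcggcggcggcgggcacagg
TGIF2: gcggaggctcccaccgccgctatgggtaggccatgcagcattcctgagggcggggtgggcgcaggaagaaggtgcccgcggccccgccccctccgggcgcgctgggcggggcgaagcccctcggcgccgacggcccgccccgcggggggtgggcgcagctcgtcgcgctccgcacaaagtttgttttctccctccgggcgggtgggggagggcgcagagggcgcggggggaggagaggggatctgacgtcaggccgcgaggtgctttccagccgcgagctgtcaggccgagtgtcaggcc

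PMEPA1 held 5 matches to GTCT on either strand, SMAD7 held 4, SKIL held 3 and TGIF2 held 0. The other members did not divide by response: NEDD4L, which also fell, held 2, as did SMURF1 and SMURF2, which rose, while LDLRAD4 held 3 and TGIF1 held 4. RefSeq gave a window for 9 of the 10 members (SKI was the exception), and 8 of the 9 held at least 1 match. Among all 35116 RefSeq windows of this length, 84.0% held at least 1 and the median was 2. The 5-letter form GTCTG, or CAGAC on the other strand, which contains the short element, stood in 8 of the 9 windows and in 45.3% of all windows. The palindrome GTCTAGAC stood in 0 of the 9 and in 0.202% of all windows. For SMAD7, LDLRAD4 and NEDD4L neither the matches to the short forms nor the lack of the palindrome says anything of the principal start. A match is a description of the letters in a window and not a binding site.

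All 10 are annotated as protein-coding genes. On GRCh38, GENCODE release 29 places SMAD7 (ENSG00000101665) at chr18:48919853-48952052 (minus), SKIL (ENSG00000136603) at chr3:170357678-170396835 (plus), SKI (ENSG00000157933) at chr1:2228695-2310119 (plus), PMEPA1 (ENSG00000124225) at chr20:57648392-57711536 (minus) and LDLRAD4 (ENSG00000168675) at chr18:13217498-13652755 (plus). It places the ligase genes SMURF1 (ENSG00000198742) at chr7:99027438-99144100 (minus), SMURF2 (ENSG00000108854) at chr17:64542295-64662068 (minus) and NEDD4L (ENSG00000049759) at chr18:58044367-58401540 (plus). The repressor genes are TGIF1 (ENSG00000177426) at chr18:3411608-3459978 (plus) and TGIF2 (ENSG00000118707) at chr20:36573488-36593950 (plus). SMAD7, LDLRAD4, NEDD4L and TGIF1 share chromosome 18 without being neighbours.

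Levels were compared between genes as CPM per kb of annotated exon (GENCODE release 29), since a longer transcript yields more fragments. In Co.vec buffer cells PMEPA1 was the highest member at 33.4 ± 1.02 CPM per kb (mean ± SD, n = 3), followed by TGIF1 at 10.96 ± 0.505 and SKIL at 9.70 ± 1.10, whose libraries overlapped. SMURF1 (6.93 ± 0.196) and SKI (6.505 ± 0.239) overlapped too, as did SMURF2 (5.30 ± 0.211) and SMAD7 (4.79 ± 0.285). NEDD4L stood at 2.26 ± 0.0509, TGIF2 at 1.39 ± 0.0865 and LDLRAD4 at 0.155 ± 0.0194 CPM per kb, each apart from its neighbours. After TGF-β PMEPA1 reached 204 ± 6.22 CPM per kb in Co.vec cells, SKIL (30.4 ± 0.503) and SKI (17.3 ± 0.743) took the next places, and TGIF2 (0.881 ± 0.0398) became the lowest. LDLRAD4 and NEDD4L have the longest exon sets (16759 and 17455 bases over all isoforms), so their length-scaled level is the one most lowered if a short isoform is used.

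**Figure D1:**
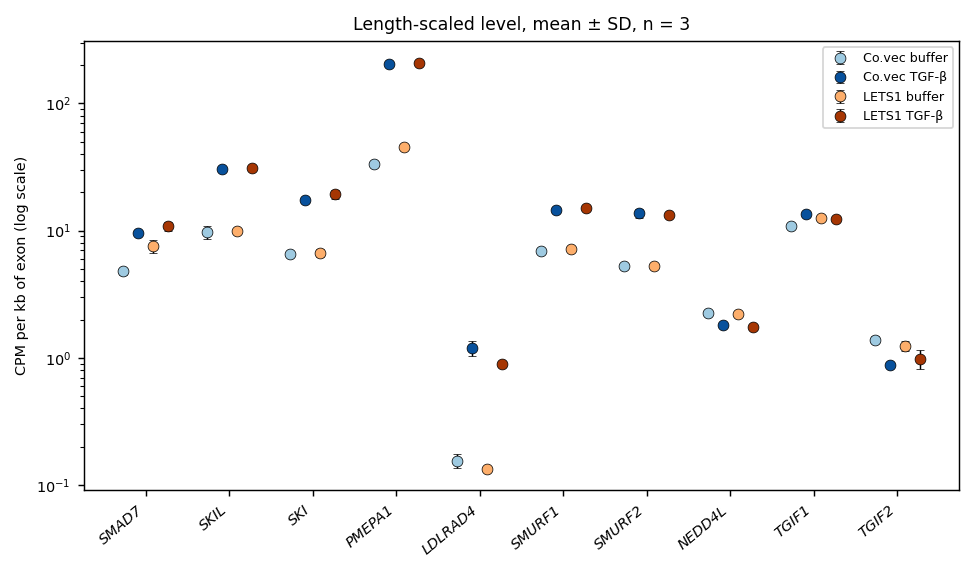
Level of the 10 feedback inhibitors in CPM per kb of exon on a log axis, with points for the mean of 3 libraries and bars for ± SD in each of the 4 groups. PMEPA1 stands above all other members in every group, from 33.4 in Co.vec buffer to 207 in LETS1 with TGF-β.

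The response of Co.vec cells to TGF-β shows which brakes the ligand moves when LETS1 is not added. All 10 members were called, 8 higher and 2 lower, where 39.7% of the 16192 tested genes were called (edgeR quasi-likelihood test, adjusted p under 0.05). The share of all genes called higher was 21.1% and lower 18.6%. The median log2 fold change of the members was 1.22, against -0.02 over all tested genes. These 10 genes are known as parts of a ligand-driven loop and were listed with earlier results of these data in view.

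The receptor-SMAD decoys rose most. LDLRAD4, a membrane protein that like PMEPA1 binds SMAD2 and SMAD3 and keeps them from the receptor complex, stood at 2.27, 2.92 and 2.60 CPM in the Co.vec buffer libraries and at 20.2, 17.3 and 22.8 CPM with TGF-β. The groups were far apart, although the buffer values rest on only 46 to 59 fragments per library. The log2 change was 2.95 (SE 0.1196, edgeR adjusted p = 1.41e-22), or 7.72-fold (95% interval 6.53 to 9.13), the 57th largest rise of all tested genes. PMEPA1 stood at 191, 181 and 191 CPM in buffer and at 1175, 1157 and 1108 CPM with the ligand. Its fold change of 6.10 (5.72 to 6.52) was the 82nd largest, from a level already the highest of the set.

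The SKI family, corepressors that bind SMAD complexes on DNA and recruit histone deacetylases, also rose. SKIL, which encodes SnoN, stood at 85.1, 72.5 and 68.8 CPM in Co.vec buffer and at 240.4, 233 and 237 CPM with TGF-β. SKI stood at 41.2, 38.6 and 38.9 CPM in buffer and at 106, 100.5 and 109 CPM with the ligand. No treated library of either gene came near a buffer library. The fold changes were 3.14 (2.91 to 3.38) for SKIL and 2.66 (2.45 to 2.89) for SKI. The ratio of SKIL to SKI per kb of exon was 1.49 ± 0.117 in buffer and 1.76 ± 0.0600 with TGF-β (n = 3).

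SMAD7 and its partner ligases rose too, SMAD7 and SMURF1 less than SKI, and SMURF2 about as much as SKI. SMAD7, which blocks the activated receptor and brings SMURF proteins to it, stood at 22.6, 24.2 and 25.5 CPM in Co.vec buffer and at 50.6, 45.9 and 49.3 CPM with TGF-β, a log2 change of 1.01 (SE 0.074, edgeR adjusted p = 1.61e-13). SMURF2 stood at 35.2, 38.1 and 37.3 CPM in buffer and at 102, 97.5 and 86.7 CPM with the ligand, and SMURF1 at 44.6, 42.2 and 43.7 against 97.0, 90.0 and 86.7 CPM. All 3 genes had separate groups. The folds were 2.02 for SMAD7 (1.81 to 2.24), 2.097 for SMURF1 (1.95 to 2.26) and 2.59 for SMURF2 (2.39 to 2.80). The ratio of SMURF2 to SMURF1 per kb was 0.765 ± 0.0511 in buffer and 0.943 ± 0.0382 with TGF-β (n = 3).

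NEDD4L, the ligase that removes SMAD2 and SMAD3 after their linker is phosphorylated, moved the other way from SMURF1 and SMURF2. It stood at 38.3, 39.9 and 39.9 CPM in Co.vec buffer and at 31.1, 31.3 and 33.0 CPM with TGF-β. The groups did not overlap, and NEDD4L fell by 0.31 on the log2 scale (SE 0.059, edgeR adjusted p = 5.01e-05). The ratio of SMURF2 to NEDD4L per kb went from 2.35 ± 0.0442 to 7.55 ± 0.862 (n = 3).

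The TGIF genes, repressors that compete with coactivators for SMAD2 and SMAD3, split. TGIF1 stood at 85.4, 93.2 and 91.7 CPM in Co.vec buffer and at 113, 105 and 113 CPM with TGF-β, the smallest of the 8 rises (log2 fold change 0.29, SE 0.050, edgeR adjusted p = 8.88e-06). TGIF2 stood at 5.63, 5.01 and 5.16 CPM in buffer and at 3.49, 3.19 and 3.31 CPM with the ligand. Both pairs of groups were separate, and TGIF2 fell by 0.66 on the log2 scale (SE 0.140, adjusted p = 0.000188) on 62 to 114 fragments per library. TGIF1 was 7.91 ± 0.831 times TGIF2 per kb in buffer and 15.2 ± 0.446 times with TGF-β (n = 3).

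**Figure D2:**
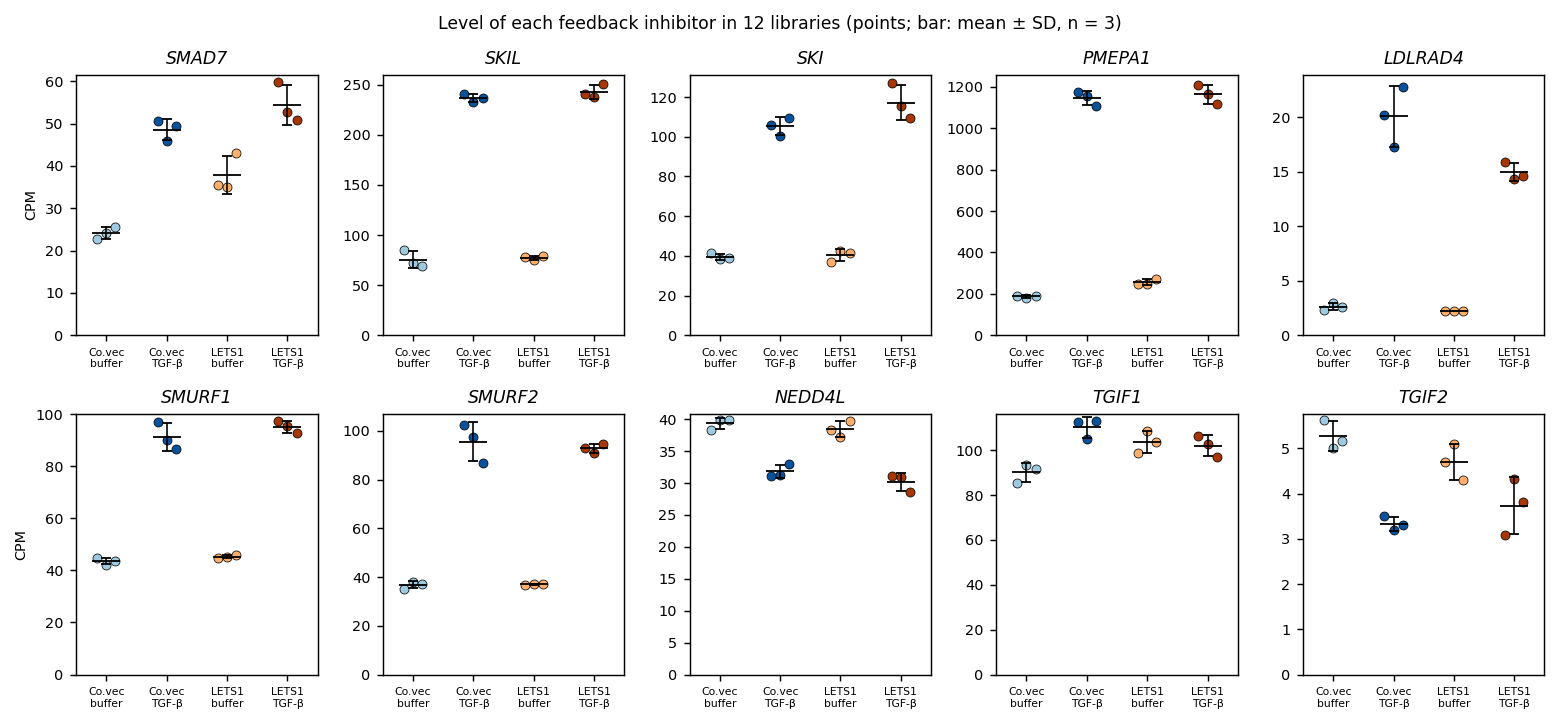
CPM of each of the 10 feedback inhibitors (vertical axis, from 0) in the 12 libraries, one panel per gene, with points for libraries and a bar for mean ± SD of 3. The ligand-treated Co.vec libraries stand above the untreated ones in 8 panels and below them for NEDD4L and TGIF2. The LETS1 buffer libraries stand above the Co.vec buffer libraries for SMAD7, PMEPA1, TGIF1 and, by a narrow gap and uncalled, SMURF1. How many of all tested genes had groups that did not overlap was not counted, so such separation is a description and carries no test.

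In LETS1 cells the same ligand treatment gave 8 called members, 7 higher and 1 lower, where 38.7% of tested genes were called (19.7% higher, 19.1% lower). The corepressor genes SKIL and SKI rose here too. SKIL went from 77.9, 74.8 and 79.0 CPM to 240.4, 237 and 251 CPM, a fold of 3.15 (2.92 to 3.39). SKI went from 37.0, 42.5 and 41.7 CPM to 127, 115 and 109 CPM, a fold of 2.90 (2.68 to 3.15). No library of one treatment reached the range of the other.

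Of the ligases both SMURF genes rose and NEDD4L fell. SMURF1 stood at 44.7, 45.2 and 46.0 CPM in LETS1 buffer and at 97.3, 95.3 and 92.9 CPM with TGF-β. SMURF2 stood at 36.8, 37.1 and 37.1 CPM in buffer and at 93.0, 91.0 and 94.8 CPM with the ligand. Their folds were 2.1001 (1.95 to 2.26) and 2.51 (2.32 to 2.72). NEDD4L stood at 38.4, 37.2 and 39.7 CPM in buffer and at 31.2, 30.9 and 28.6 CPM with TGF-β, and fell by 0.35 on the log2 scale (SE 0.059, edgeR adjusted p = 8.42e-06).

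SMAD7, PMEPA1 and TGIF1 responded less on the fold scale in LETS1 cells than in Co.vec cells. SMAD7 stood at 35.4, 35.0 and 43.0 CPM in LETS1 buffer and at 59.8, 52.7 and 50.8 CPM with TGF-β, a fold of 1.44 (1.30 to 1.59). PMEPA1 stood at 247, 249.9 and 272 CPM in buffer and at 1208, 1164 and 1118 CPM with TGF-β, a fold of 4.54 (4.26 to 4.84). Both pairs of groups stayed apart. TGIF1 stood at 98.8, 109 and 104 CPM in LETS1 buffer and at 106, 103 and 97.0 CPM with TGF-β, so its groups overlapped and it was not called (log2 fold change -0.02, 95% interval -0.12 to 0.08). TGIF2 stood at 4.69, 5.10 and 4.30 CPM and at 3.08, 4.31 and 3.81 CPM (log2 fold change -0.33, edgeR adjusted p = 0.0581). It was called when LETS1 buffer replicate 3 (adjusted p = 0.0475) or LETS1 TGF-β replicate 2 (0.0261) was left out. LDLRAD4 stood at 2.25, 2.26 and 2.20 CPM and at 15.9, 14.3 and 14.6 CPM, a fold of 6.68 (5.58 to 8.0005).

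**Figure D3:**
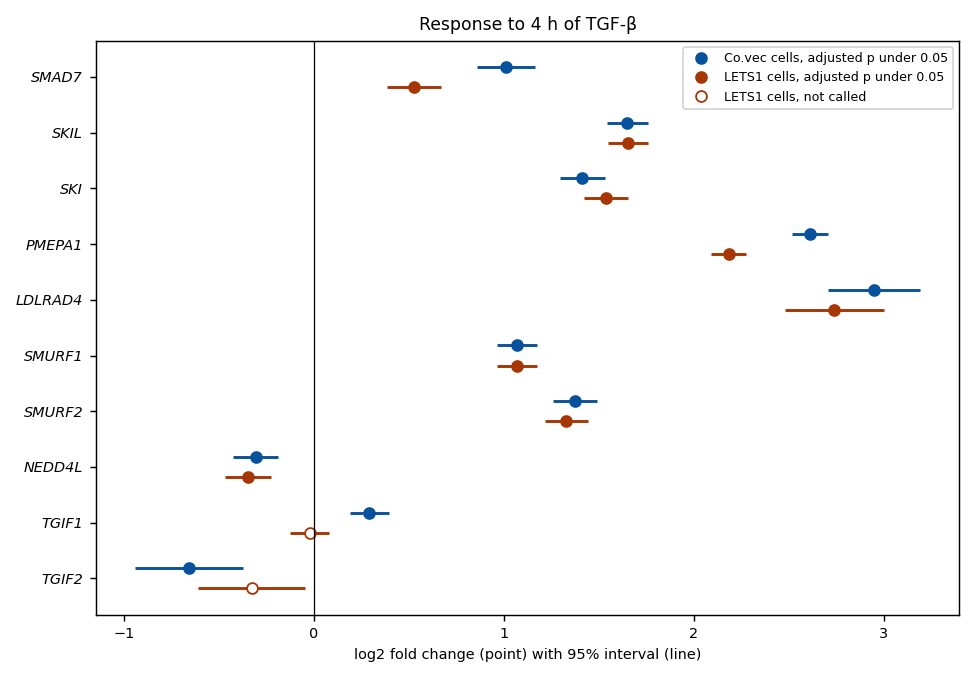
Log2 fold change of TGF-β against buffer for each feedback inhibitor in Co.vec cells (blue) and LETS1 cells (brown), with lines for the 95% interval, filled points where the adjusted p was under 0.05 and open points elsewhere. The LETS1 point stands to the left of the Co.vec interval for SMAD7, PMEPA1 and TGIF1, while the points of SKIL nearly coincide at 1.65. It stands to the right of that interval for SKI, narrowly, and for TGIF2, both uncalled in the interaction.

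The interaction tests whether the ligand response differed between the cell populations. It called 3 of the 10 members, all with a negative difference (LETS1 minus Co.vec), where 0.679% of tested genes were called (0.599% negative and 0.0803% positive). PMEPA1 had a difference of log2 responses of -0.43 (SE 0.063, edgeR adjusted p = 3.61e-05), SMAD7 of -0.49 (SE 0.102, adjusted p = 0.00846) and TGIF1 of -0.31 (SE 0.071, adjusted p = 0.0152). The call of SMAD7 was lost when LETS1 buffer replicate 3 was left out (-0.38, adjusted p = 0.0653), the library with the highest SMAD7 and PMEPA1 of its group. That of TGIF1 was lost without Co.vec buffer replicate 1 (adjusted p = 0.0529), Co.vec TGF-β replicate 1 (0.0552), LETS1 buffer replicate 2 (0.0922) or LETS1 TGF-β replicate 3 (0.0609). PMEPA1 kept its call with each of the 12 libraries left out (-0.46 to -0.38).

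For the other 7 members the interval of the difference bounds what could have been missed. It was 0.00 (-0.15 to 0.16) for SKIL, 0.00 (-0.15 to 0.15) for SMURF1, -0.05 (-0.21 to 0.12) for SMURF2, -0.04 (-0.21 to 0.13) for NEDD4L and 0.13 (-0.04 to 0.29) for SKI, on the log2 scale. The intervals of LDLRAD4 (-0.21, from -0.62 to 0.20) and TGIF2 (0.33, from -0.07 to 0.73) were wider, as their counts are low. That of LDLRAD4 includes the differences of the 3 called members. That of TGIF2 includes differences of such size only with the opposite sign.

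Setting LETS1 against Co.vec cells in buffer shows which brakes differed without added ligand. It uses the same buffer libraries as the ligand comparisons above. Of the 10 members 3 were called, all higher, where 15.1% of tested genes were called, 8.57% higher and 6.56% lower. From the library values already given, SMAD7 was higher in each of the 3 LETS1 libraries than in any Co.vec library, a fold of 1.57 (1.41 to 1.75, edgeR adjusted p = 3.92e-08). PMEPA1 was likewise separate, with a fold of 1.36 (1.28 to 1.45, adjusted p = 5.25e-10). TGIF1 was 1.15-fold higher (1.07 to 1.23, adjusted p = 0.0035) and also separate, but lost its call when LETS1 buffer replicate 2 was left out (adjusted p = 0.0506). SMAD7 in LETS1 buffer, at 37.8 ± 4.47 CPM (mean ± SD, n = 3), lay between Co.vec buffer (24.1 ± 1.43) and Co.vec with TGF-β (48.6 ± 2.44). For PMEPA1 the buffer difference of 68.4 CPM (SE 8.70) was small beside the ligand increment of 959 CPM (SE 20.4) in Co.vec cells. TGIF1 in LETS1 buffer (104 ± 4.96 CPM) lay closer to Co.vec with TGF-β (110.2 ± 4.56) than to Co.vec buffer (90.1 ± 4.15).

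SKIL (fold 1.02, 95% interval 0.946 to 1.11), SKI (1.02, 0.934 to 1.11), SMURF1 (1.04, 0.964 to 1.12), SMURF2 (1.00, 0.921 to 1.09) and NEDD4L (0.976, 0.900 to 1.06) were not called in buffer. The SMURF1 libraries did not overlap (44.7 CPM at the lowest with LETS1, 44.6 CPM at the highest with Co.vec), and its upper bound reached furthest of these 5. LDLRAD4 (0.859, 0.667 to 1.11) and TGIF2 (0.892, 0.743 to 1.07) were not called either, with wider intervals, though the LETS1 libraries of LDLRAD4 all lay below those of Co.vec.

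With TGF-β present LETS1 and Co.vec cells differed in 2 members, 1 higher and 1 lower, where 14.1% of tested genes were called (7.58% higher, 6.50% lower). LDLRAD4 was lower in each LETS1 library than in any Co.vec library, by 0.43 on the log2 scale (log2 fold change -0.43, SE 0.088, edgeR adjusted p = 0.000433), and it kept this call with each library left out (adjusted p at most 0.0108). SKI differed by 0.15 on the log2 scale (SE 0.053, adjusted p = 0.0457), its libraries overlapped, and the call was lost when any 1 of 7 libraries was left out (adjusted p up to 0.369), with DESeq2 (0.0775), with the replicate block (0.0643) and in a fit of the 6 libraries alone (0.0533). SMAD7 stood at 54.4 ± 4.72 CPM with LETS1 and 48.6 ± 2.44 without (n = 3, fold 1.12, adjusted p = 0.112) and was not called. Its libraries were separate only by a narrow gap (50.8 CPM at the lowest with LETS1, 50.6 CPM at the highest with Co.vec). PMEPA1 stood at 1163 ± 44.7 and 1147 ± 35.0 CPM (n = 3), a fold of 1.01 (0.955 to 1.08). The log2 change of TGIF1 was -0.11 (adjusted p = 0.143), against 0.20 in buffer.

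**Figure D4:**
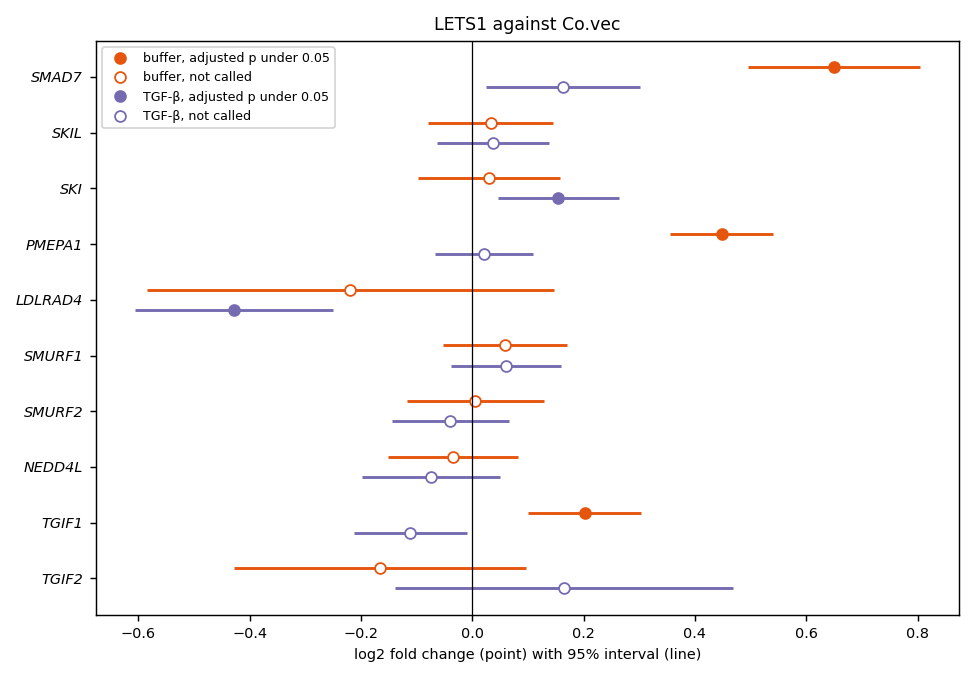
Log2 fold change of LETS1 against Co.vec for each feedback inhibitor in buffer (orange) and with TGF-β (purple), with lines for the 95% interval, filled points where the adjusted p was under 0.05 and open points elsewhere. SMAD7, PMEPA1 and TGIF1 are filled in buffer and open with TGF-β, and LDLRAD4 and SKI are filled with TGF-β alone.

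Annotated exons of other genes overlap those of 6 members. NKILA, an antisense long non-coding RNA that shares 6.10% of the PMEPA1 exon bases, had 45 to 325 fragments per library against 3657 to 23569 for PMEPA1. It rose with TGF-β in Co.vec cells (log2 fold change 2.15, edgeR adjusted p = 2.85e-16) with LETS1 in buffer (0.69, adjusted p = 0.0025) and with LETS1 under TGF-β (0.36, adjusted p = 0.0107), where PMEPA1 was not called. The counting set aside fragments as ambiguous, 10.1% to 10.9% of each library, and gave them to no gene. The strand setting is not given in the sources used here. Whether fragments in the bases shared by NKILA and PMEPA1 were assigned by strand or set aside is thus not known. TRRAP overlaps 11.7% of the SMURF1 exon bases and CEP95 2.40% of those of SMURF2. Both were uncalled in all 5 comparisons. TGIF2 shares 8.14% of its exon bases with the read-through gene TGIF2-RAB5IF, which had 0 counts in every library. The genes that overlap LDLRAD4 and NEDD4L had at most 1 count.

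The genes with a pattern most like a member were sought by Pearson correlation of log2(CPM + 1) over the 12 libraries, which share the treatment groups, so a high value is a description. For SMAD7 these were JUN (r = 0.985), BHLHE40 (0.981) and DUSP8 (0.980). JUN, an AP-1 subunit, stood at 36.9, 45.6 and 46.4 CPM in Co.vec buffer, at 97.0, 106 and 122 CPM in LETS1 buffer, at 204, 192 and 168 CPM in Co.vec with TGF-β and at 218, 211 and 208 CPM in LETS1 with TGF-β. Within the LETS1 buffer group, JUN, BHLHE40 (330.4, 319 and 374 CPM), DUSP8, SMAD7 and PMEPA1 were each highest in replicate 3. Without that library the SMAD7 difference from Co.vec in buffer was 0.55 on the log2 scale, against 0.65 with it. How much of the difference came from that library was not tested. For PMEPA1 the most alike were the collagen gene COL1A1 (r = 0.999), the non-coding LINC02086 (0.998) and PGM2L1 (0.997). For SKIL they were TMC7, PTPRJ and BEND7 (each r = 0.997). TMC7 stood at 8.40 ± 0.501 CPM in Co.vec and 9.42 ± 0.539 CPM in LETS1 cells with buffer, and at 33.7 ± 0.805 and 33.5 ± 0.776 CPM with TGF-β (n = 3).

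Other genes of the pathway, in 5 lists written with earlier results of these data known, give the surroundings of the brakes. Of 16 tested ligand and receptor genes, 9 were higher and 4 lower with TGF-β in Co.vec cells (median log2 fold change 0.26). INHBA stood at the top (2.95), though imprecisely (SE 0.677), and the co-receptor gene TGFBR3 at the bottom (-1.34, SE 0.091). Of 9 signal-carrying SMADs and partners, 6 were higher and 1 lower (median 0.21), from SMAD5 (0.35) to SMAD2 (-0.35). Of 18 other brakes, 11 were higher and 2 lower (median 0.20), led by the ligase gene NEDD4 (0.88) and, downward, by the antiproliferative gene TOB1 (-1.24). Of 12 listed regulators of the brakes or of the pathway, 5 were higher and 2 lower (median 0.03). RNF111, whose product Arkadia degrades SMAD7, SKI and SKIL proteins, rose by 0.40 and UCHL5 fell by 0.21. These regulators are called enzymes below, though AXIN1 and FZR1 among them do not encode enzymes. Of 22 SMAD target genes, 22 were higher (median 1.27), ANGPTL4 most (4.53). In this comparison 39.7% of all genes were called.

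In LETS1 cells the ligand gave 9 higher and 5 lower of the ligands and receptors, 6 and 1 of the SMADs, 10 and 1 of the other brakes, 5 and 1 of the enzymes, and 21 and 1 of the targets, KLF10 being the one that fell (-0.53). These counts stand against 38.7% of all genes called. With LETS1 in buffer 15.1% of all genes were called. There 4 ligand and receptor genes were higher (INHBA 2.26, TGFB2 0.63, TGFB1 0.40, TGFBR1 0.33) and 3 lower (TGFBR3 -0.60, INHBB -0.24, TGFBR2 -0.22). The INHBA estimate was imprecise (SE 0.751, interval 0.73 to 3.78, edgeR adjusted p = 0.0353). The SE was 0.068 for TGFB2 and 0.050 for TGFB1. None of the 9 signal-carrying SMADs and partners was called by edgeR. Of the other brakes WWP1 (-0.21), SMAD6 (-0.15) and HDAC1 (-0.14) were lower and 0 higher, and of the enzymes RNF111 was higher (0.16) and USP9X lower (-0.16). SMAD6, the inhibitory SMAD of the BMP arm, thus had the opposite sign to SMAD7. Of the SMAD targets 13 were higher and 1 lower, from GADD45B (1.78) to HMGA2 (-0.19).

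With TGF-β present, LETS1 against Co.vec called 14.1% of all genes. Of the ligand and receptor genes 4 were higher and 4 lower (INHBA 1.74, SE 0.326, and TGFBR3 -0.49, SE 0.113). Among the other brakes BAMBI was higher (0.17) and TOB1 (-0.39) and WWP1 (-0.26) lower. Of the SMAD targets 11 were higher and 1 lower (BMF 0.61, CCN2 -0.16). Of the SMADs 0 of 9 and of the enzymes 0 of 12 were called by edgeR. The interaction, which called 0.679% of all genes, called 6 of the 22 SMAD targets, GADD45B most (-1.64), and TOB1 (-0.38) of the other brakes, all with the negative sign that PMEPA1, SMAD7 and TGIF1 had. It called 0 of the ligands and receptors, SMADs and enzymes.

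**Figure D5:**
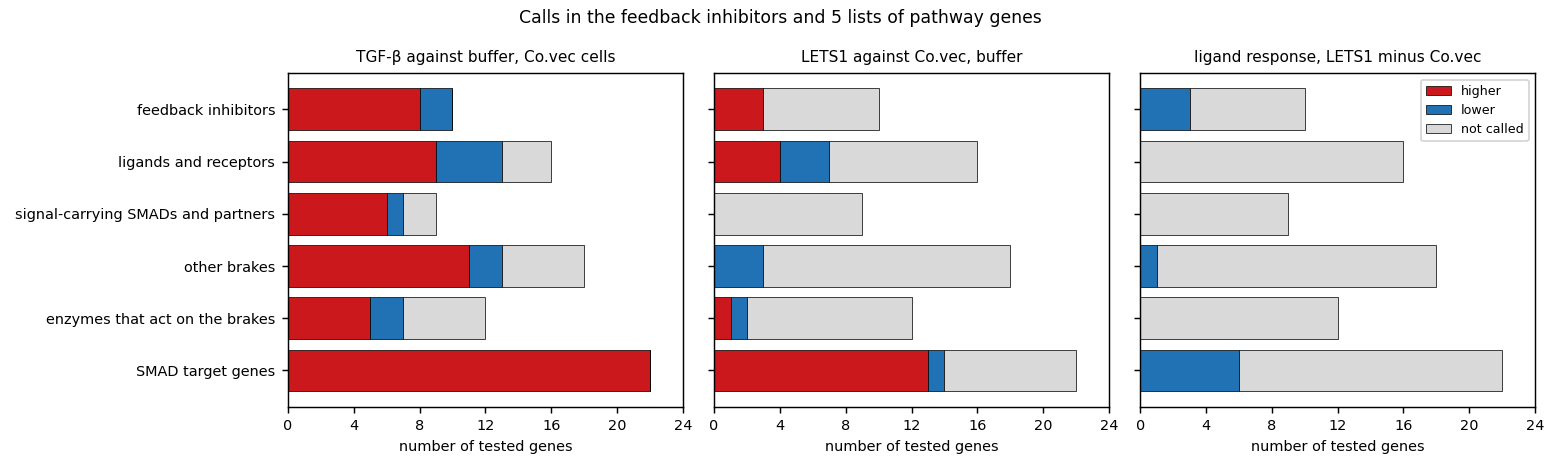
Number of tested genes called higher (red), lower (blue) or not called (grey) among the 10 feedback inhibitors and 5 lists of pathway genes, for the ligand in Co.vec cells, LETS1 in buffer and the interaction. The feedback inhibitors are called 10 of 10, 3 of 10 and 3 of 10, against 39.7%, 15.1% and 0.679% of all tested genes.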

How the data were processed

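RNA of 12 libraries was sequenced on a DNBSEQ instrument, per the labels. The authors deposited raw counts, whole fragments per gene; cutadapt 2.10, STAR 2.7.5a and HTSeq 0.12.4 with GRCh38 are named in the submitters' processing notes. For strand setting and annotation release: not given in the sources used here. Fragments given to no gene (18.9% to 20.0%) were left out. Depth was 19705135 to 20351043 gene fragments per library.

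Symbols matched 60357 of 60676 gene rows. Genes were filtered with filterByExpr, scaled by TMM and fitted with the robust quasi-likelihood model of edgeR 4.0.16 (R 4.3.3), 1 mean per group over all 12 libraries, with Benjamini-Hochberg adjustment over 16192 genes. SE is the log2 change divided by root F. Intervals are 95%, per gene, unadjusted. The fit was tested on simulated data. Alternatives were RLE factors, no filter, a replicate block, DESeq2 1.42.0, the 6 libraries alone and each library left out. The members and lists were chosen with earlier results of these data known. All 10 members are named; of lists, the largest called rise and fall, and all called genes where 5 or fewer. Genes overlapping a member's exons are named beside it, as are the 3 genes most correlated with SMAD7, SKIL and PMEPA1 among 13821 genes with a symbol and a mean CPM of at least 1. Genes in the interaction that fall outside this rule are not named.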

Additional observations from a re-analysis of the deposited data

Results flagged for a closer look

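The ligand response differed between LETS1 and Co.vec cells by the interaction test for 3 of the 10 feedback inhibitors and for 5 of the other pathway genes named. The interaction called 6 SMAD targets in all, and those outside the naming rule are not given here, whatever their size. The difference of log2 responses, LETS1 minus Co.vec, was -0.49 for SMAD7, -0.43 for PMEPA1 and -0.31 for TGIF1. It was -0.38 for TOB1 (edgeR adjusted p = 0.000662), which falls with the ligand, so that the negative sign is a deeper fall. It was -1.64 for GADD45B (adjusted p = 3.58e-13), -0.78 for KLF10 (adjusted p = 1.55e-07), -0.55 for BHLHE40 (adjusted p = 1.1e-06) and -0.40 for COL1A1 (adjusted p = 0.0206).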

How the results depend on the processing

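Of 240 log2 fold changes of members refitted with RLE factors, no filter, the replicate block, DESeq2 or the 6 libraries alone, 234 kept direction and side of the threshold. With LETS1 against Co.vec under TGF-β, 1 member was called in place of 2 with the replicate block, with DESeq2 and with the 6 libraries alone, SKI being the one lost. SMURF2 in buffer turned to -0.0096 with no filter and -0.0031 with the 6 libraries alone, and TGIF1 with TGF-β in LETS1 cells to 0.0066 with no filter; neither was called. With 1 library left out, members called ran from 2 to 3 for LETS1 in buffer, 1 to 2 with TGF-β, 10 to 10 and 8 to 9 for the ligand in Co.vec and LETS1 cells, and 2 to 3 for the interaction. Signs turned only for uncalled values near 0. The ranges were -0.027 to 0.13 for SKIL, -0.011 to 0.089 for SKI and -0.027 to 0.026 for SMURF2 in buffer, -0.012 to 0.049 for PMEPA1 and -0.11 to 0.0087 for SMURF2 under TGF-β, -0.056 to 0.020 for TGIF1 with the ligand in LETS1 cells, and -0.091 to 0.064 for SKIL, -0.031 to 0.046 for SMURF1 and -0.11 to 0.0055 for SMURF2 in the interaction. Same-numbered libraries did not deviate together (0 of 18 correlations over 0.1). Whether libraries were handled in numbered sets is not given in the labels. The replicate block changed no other call of a member. Low counts of LDLRAD4 and TGIF2 limit what buffer and interaction comparisons can show for them.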

Other observations

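The interaction is defined on the fold scale, and the increments in CPM give a different picture for single members. For PMEPA1 the ligand added 959 CPM (SE 20.4) in Co.vec cells and 907 CPM (SE 27.0) in LETS1 cells, a difference of -51.7 CPM with an SE of 33.9. For SMAD7 the increments were 24.5 (SE 1.63) and 16.6 CPM (SE 3.76), a difference of -7.87 (SE 4.09). TGIF1 gained 20.1 CPM (SE 3.56) in Co.vec cells and changed by -1.62 CPM (SE 3.94) in LETS1 cells, a difference of -21.7 (SE 5.31). LDLRAD4, not called by the interaction on the fold scale, gained 17.5 CPM (SE 1.62) in Co.vec and 12.7 CPM (SE 0.473) in LETS1 cells, a difference of -4.79 (SE 1.69). These differences come from group means and SDs (n = 3) and carry no test.

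LDLRAD4 and PMEPA1 encode related decoys, and LETS1 against Co.vec was called for only 1 of them per treatment. PMEPA1 was higher in buffer, where LDLRAD4 was uncalled on 45 to 59 fragments per library. LDLRAD4 was lower with TGF-β, where PMEPA1 was uncalled. Their ratio is a description and carries no test. The ratio of PMEPA1 to LDLRAD4 per kb of exon was 218 ± 33.1 in Co.vec buffer and 342 ± 23.5 in LETS1 buffer, and 173 ± 27.6 and 232 ± 8.49 with TGF-β (mean ± SD, n = 3). The LETS1 libraries stood above the Co.vec libraries under both treatments, from 328 against at most 251 in buffer and from 227 against at most 199.9 with TGF-β.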
